A study of Homo sapiens with 6 samples.

Results

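The genes described here are 10 heat shock chaperones and cochaperones of the cytosol and the mitochondrial matrix, taken as the rows of the count table whose mouse Ensembl gene identifier (ID) stood on a fixed list. All 10 were found among 34866 rows, and all 10 passed the filter on low counts that left 11400 tested IDs. They were Hspa8 (ENSMUSG00000015656), Hspa4 (ENSMUSG00000020361), Hsph1 (ENSMUSG00000029657), Hsp90aa1 (ENSMUSG00000021270), Hsp90ab1 (ENSMUSG00000023944), Dnaja1 (ENSMUSG00000028410), Dnajb1 (ENSMUSG00000005483), Hspa9 (ENSMUSG00000024359), Hspd1 (ENSMUSG00000025980) and Hspe1 (ENSMUSG00000073676). The symbols came with the list. No table used here pairs mouse IDs with symbols, so neither these names nor GOLPH3 itself nor markers of the cell type could be checked in the counts.

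The 6 RNA-seq libraries are labelled as MKN45, an established human gastric adenocarcinoma line. Both groups were given an adenovirus: in 3 libraries it carried a control short hairpin RNA (shRNA), and in 3 an shRNA against GOLPH3, a Golgi protein that binds phosphatidylinositol 4-phosphate. The study's design text calls the line MUC6 negative and asks how expression differs between the treatments. The labels give no time after infection and no number of hairpins. Titles number the GOLPH3 libraries after the letters sh and the controls after shcont. These numbers are used here as replicate numbers, and the labels do not say whether they mark different hairpins. Nor do the labels say whether replicates were separate cultures, so p-values measure only the spread between these libraries. Library totals ran from 4977645 to 7355140 estimated counts, and each control library held more than any GOLPH3 shRNA library. Counts stand under mouse gene IDs although the line is human. Whether human reads were placed on mouse gene models or the cells were mouse cannot be told apart here. How well the counts under a mouse ID measure the named gene was not tested. That limit holds for every level and change given below.

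Heat shock proteins fold new chains and refold damaged ones. In the cytosol, J-domain proteins hand clients to HSP70 and stimulate its ATPase, HSP110 proteins exchange its nucleotide, and HSP90 takes over part of the clients, among them many kinases. In the mitochondrial matrix, the HSP70 of that compartment helps to pull proteins in and the HSP60 barrel with its HSP10 lid folds them. Heat shock factor 1 (HSF1) raises many of these genes in stressed cells through heat shock elements, which are rows of inverted 5-base units with GAA at their core.

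The promoters of the human genes with these names are shown first because HSF1 acts on many, not all, genes of the family through such elements. RefSeq windows (GRCh38.p14) were matched for all 10 genes, with 16 start sites, and the 250 bases before each start were searched on both strands for 2 adjoining units, GAANNTTC or TTCNNGAA. At least 1 match lay before a start site of 6 of the 10 genes (6 of the 16 windows), where 11.6% of 35116 windows in the whole table held one. A run of at least 3 alternating units, made of both overlapping motifs, was found in 4 of the 16 windows. These lay before HSPA8, HSP90AA1, HSP90AB1 and HSPD1. Of all windows, 0.441% held one. The windows of HSPA4, HSPH1, HSPA9 and HSPE1 held no match, which says only that these letters are not in these windows. Each match is a description of letters and not a measured binding site. Below, 30 bases around each match or close group of matches are printed 5′ to 3′ on the gene's strand, with the matched units and the bases between them in capitals.
HSPA8 proximal, chr11:123062170-123062199 (- strand): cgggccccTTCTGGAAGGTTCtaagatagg
HSPA8 distal, chr11:123062345-123062374 (- strand): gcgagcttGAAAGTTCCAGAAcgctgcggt
HSP90AA1, chr14:102087104-102087133 (- strand): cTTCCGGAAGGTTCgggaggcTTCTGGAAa
HSP90AB1 proximal, chr6:44247823-44247852 (+ strand): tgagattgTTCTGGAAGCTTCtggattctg
HSP90AB1 distal, chr6:44247770-44247799 (+ strand): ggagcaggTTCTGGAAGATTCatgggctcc
DNAJB1 proximal, chr19:14518426-14518455 (- strand): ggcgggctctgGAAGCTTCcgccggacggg
DNAJB1 distal, chr19:14518456-14518485 (- strand): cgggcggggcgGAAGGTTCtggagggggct
DNAJA1, chr9:33025064-33025093 (+ strand): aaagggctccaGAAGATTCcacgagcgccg
HSPD1, chr2:197500061-197500090 (- strand): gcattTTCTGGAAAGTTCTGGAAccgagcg

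In these lines the group of HSPA8 nearest its start begins 55 bases before it and the farther one 230 bases before it. The HSP90AA1 group, with 5 units the most of any printed line though not in 1 unbroken run, begins 88 bases before the more downstream of its 2 start sites. In HSP90AB1 the groups begin 112 and 165 bases before the most downstream of its 3 start sites. The DNAJB1 matches, of 2 units each, begin 47 and 77 bases before the middle of its 3 start sites. The DNAJA1 match begins 198 bases before the start and lies in an exon of APTX in GENCODE v29. The HSPD1 run, with 4 units, begins 245 bases before the more downstream of its 2 start sites. HSPD1 and HSPE1 lie head to head on chromosome 2, with the HSPE1 start 539 bases from the more downstream HSPD1 start and 105 bases from the other, and the end of the printed HSPD1 line is 289 bases from the HSPE1 start, outside the HSPE1 window. In GENCODE v29 the lines of HSPA8, HSP90AA1 and HSPD1 overlap annotated exons of the same genes, and the last also an exon of HSPE1. Those of DNAJB1 and HSP90AB1 overlap no exon. For wider context, the part of the DNAJB1 window that overlaps no exon is given whole, with the same capitals. It was picked because Dnajb1 is among the genes that rose most. Whether any of these letters had a part in a change of level was not tested.
DNAJB1 upstream, chr19:14518421-14518647 (- strand): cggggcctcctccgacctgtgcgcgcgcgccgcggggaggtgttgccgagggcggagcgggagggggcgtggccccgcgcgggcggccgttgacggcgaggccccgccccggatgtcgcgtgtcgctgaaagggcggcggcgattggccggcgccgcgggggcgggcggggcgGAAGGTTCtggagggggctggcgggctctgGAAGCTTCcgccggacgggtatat

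With GOLPH3 shRNA, 6 of the 10 chaperone genes rose, none (0) fell and 4 did not pass the test. All 10 fitted changes were above 0, so no member was lower at an unadjusted p below 0.05 either, and none (0) was called lower by DESeq2 or limma-voom. Hspa8, Dnajb1 and Hsp90aa1 rose most, by 2.08-, 1.64- and 1.63-fold, followed by Hspa9, Hsp90ab1 and Hsph1. The place of Dnajb1 above Hspa9, and its rise of at least 1.5-fold, rested on GOLPH3 shRNA replicate 3. Hspa4, Dnaja1, Hspd1 and Hspe1 did not pass. The test was edgeR's quasi-likelihood F test over all 11400 IDs, with a call at a Benjamini-Hochberg adjusted p below 0.05. By that rule 16.1% of all tested IDs were called higher and 17.8% lower. The members were chosen with earlier results of these data known, so their counts beside these shares are a description only. Of the members, 3 were called with a rise of at least 1.5-fold, as were 6.57% of all tested IDs. More cells that express a gene and more of its RNA per cell cannot be told apart in such bulk libraries. The median log2 fold change was 0.32 over the 10 genes and 0.0019 over all tested IDs. Values per library are given as CPM, estimated counts scaled to a common library total with trimmed mean (TMM) factors. CPM is not divided by gene length, so levels are compared only between libraries and not between genes.

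**Figure D1:**
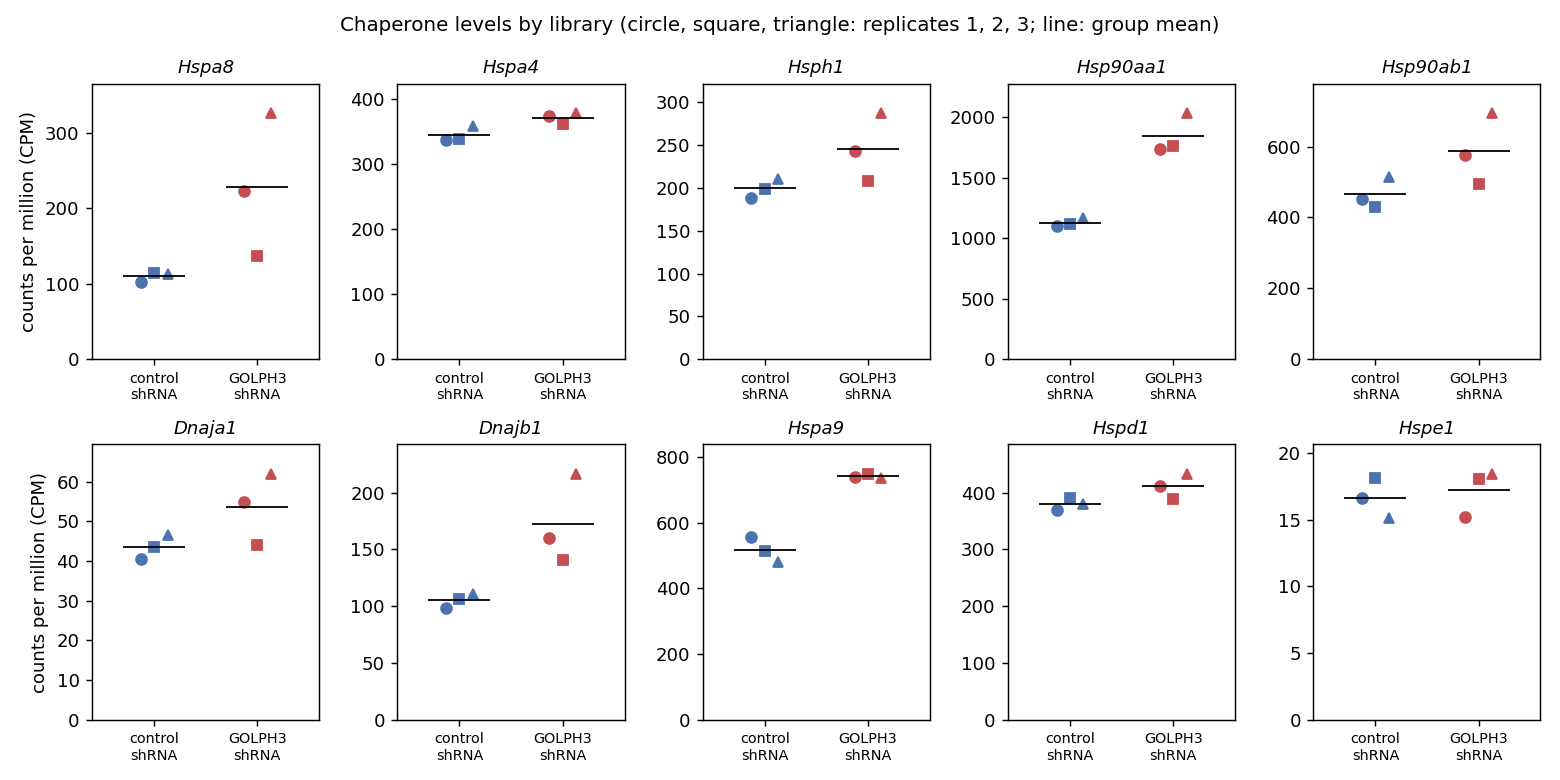
Level of each chaperone gene in CPM (linear y axis from 0, its own scale in each panel) in 3 control shRNA and 3 GOLPH3 shRNA libraries, with a line at each group mean. For Hspa8, Hspa4, Hsp90aa1, Dnajb1 and Hspa9 all GOLPH3 shRNA points lie above all control points, and for the other 5 genes the groups overlap.

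All 3 GOLPH3 shRNA values lay above all 3 control values for 5 genes: Hspa8, Hspa4, Hsp90aa1, Dnajb1 and Hspa9. Across all tested IDs, 22.1% had values separated upward in this way and 24.2% downward. Among the members none (0) lay wholly below the controls. The other 5 genes had overlapping groups, 2 of them (Hsph1 and Hsp90ab1) although they were called higher.

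Hspa8 encodes HSC70, the constitutive cytosolic HSP70, which folds new chains and uncoats clathrin vesicles. It stood at 103, 115 and 113 CPM in control replicates 1, 2 and 3. In the GOLPH3 shRNA libraries it stood at 223, 136 and 326 CPM. The control values were close together, while replicate 2 of the GOLPH3 group was not far above them and replicate 3 was the highest by a wide margin. The means were 109.9 ± 6.31 and 228 ± 94.9 CPM (SD, n = 3). The log2 fold change came to 1.05 with an SE of 0.20 (edgeR adjusted p = 0.00063). Without GOLPH3 shRNA replicate 3 the log2 fold change was 0.70 (edgeR adjusted p = 0.0018), so the call held at a smaller size. Hspa8 estimates had fractional parts in all 6 libraries, as did those of Hsp90aa1, Hsp90ab1, Dnaja1, Hspa9 and Hspd1. GENCODE v29 names 17 human pseudogenes after HSPA8, whereas the counts stand under mouse IDs. Whether reads divided between gene copies had a part in the values of any of these genes was not tested.

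Of the 2 nucleotide exchange factors of HSP70 among the 10 genes, 1 passed the test. Hsph1, which encodes the HSP110 protein HSP105, had 189, 199 and 211 CPM in the controls and 243, 208 and 288 CPM with GOLPH3 shRNA. GOLPH3 shRNA replicate 2 lay among the control values. Hsph1 rose from 199 ± 11.3 to 246 ± 40.0 CPM (SD, n = 3), or by 0.30 on the log2 scale with an SE of 0.097 (edgeR adjusted p = 0.023). Hspa4, which encodes the related APG-2, had 337, 339.5 and 359.8 CPM in the controls and 374, 363 and 379 CPM with GOLPH3 shRNA. These values were separate but near each other, and the log2 fold change of 0.11 (SE 0.065) did not pass the test (edgeR adjusted p = 0.22). Both genes had whole estimates in all 6 libraries, the only 2 of the 10 to do so.

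Both cytosolic HSP90 genes rose. Hsp90aa1, the stress-inducible form, had 1102, 1120.2 and 1166 CPM in the controls and 1735, 1759.5 and 2035 CPM with GOLPH3 shRNA. The groups were far apart, and the spread within each was small. The means were 1130 ± 32.9 and 1843 ± 166 CPM (SD, n = 3). The rise was 0.71 on the log2 scale with an SE of 0.072, and its p was the smallest of the 10 genes (edgeR adjusted p = 2.76e-06). Hsp90ab1, the constitutive form, had 451, 430.5 and 514 CPM in the controls and 576, 495 and 695 CPM with GOLPH3 shRNA. Here GOLPH3 shRNA replicate 2 lay below control replicate 3. The means were 465 ± 43.3 and 589 ± 100.3 CPM (SD, n = 3), a rise of 0.34 on the log2 scale with an SE of 0.10 (edgeR adjusted p = 0.016).

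The calls of Hsph1 and Hsp90ab1 were sensitive to single libraries. Each was lost when any 1 of control replicate 1, control replicate 2, GOLPH3 shRNA replicate 1 or GOLPH3 shRNA replicate 3 was left out. The edgeR adjusted p was then 0.071 to 0.17 for Hsph1 and 0.053 to 0.11 for Hsp90ab1. Without GOLPH3 shRNA replicate 3 the log2 fold changes dropped to 0.17 and 0.20. In the other 3 losses they were 0.26 to 0.31 for Hsph1 and 0.28 to 0.35 for Hsp90ab1. Both calls held without control replicate 3, and without GOLPH3 shRNA replicate 2 both fold changes were larger, at 0.41 and 0.45 (edgeR adjusted p = 0.0024 and 0.0018). Hspa8, Hsp90aa1, Dnajb1 and Hspa9 were called with each library left out in turn. Without GOLPH3 shRNA replicate 3 the log2 fold change of Dnajb1 was 0.51, below that of Hspa9 at 0.52.

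**Figure D2:**
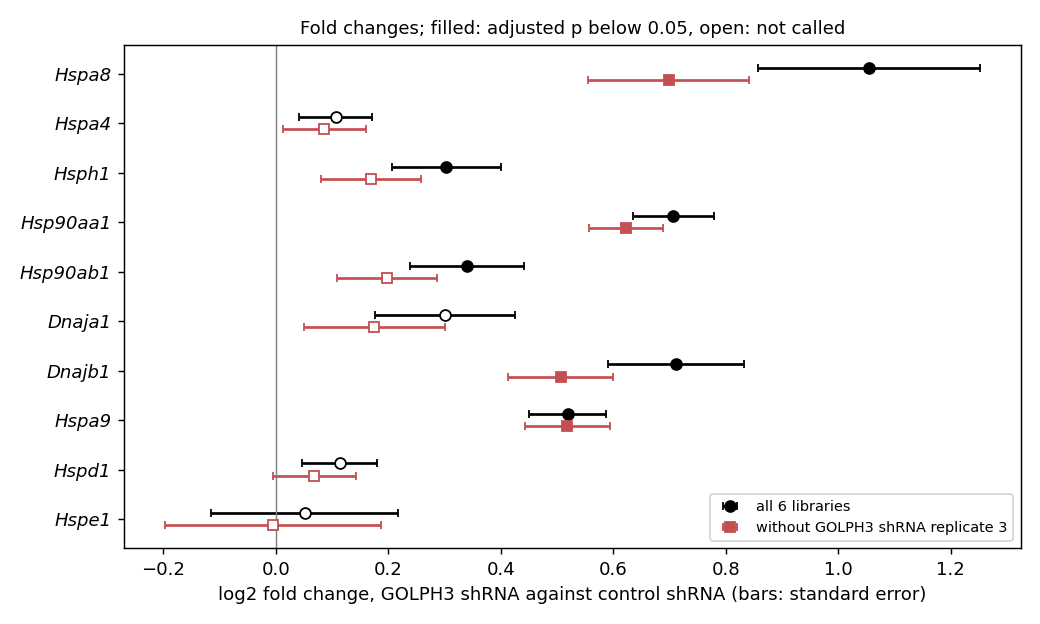
Log2 fold change (GOLPH3 shRNA against control shRNA) with its standard error for each gene, from all 6 libraries (black circles) and without GOLPH3 shRNA replicate 3 (red squares); filled symbols had an edgeR adjusted p below 0.05. Hspa8, Hsp90aa1, Dnajb1 and Hspa9 are filled in both fits, and Hsph1 and Hsp90ab1 in the fit of all libraries alone.

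The J-domain cochaperones were both higher in mean level, and 1 of the 2 passed the test. Dnajb1 (HSP40), a stress-inducible partner of HSP70 in disaggregation, had 98.4, 107 and 111 CPM in the controls. With GOLPH3 shRNA it had 159.8, 141 and 216 CPM, all above the controls. It rose from 105 ± 6.33 to 172 ± 39.3 CPM (SD, n = 3), or by 0.71 on the log2 scale with an SE of 0.12 (edgeR adjusted p = 0.00028). Dnaja1, a farnesylated J-domain protein of the cytosol, had 40.5, 43.5 and 46.6 CPM in the controls and 54.9, 44.0 and 62.0 CPM with GOLPH3 shRNA. Replicate 2 of the latter lay within the controls. Its log2 fold change of 0.30 (SE 0.12) had the size of that of Hsph1 with a larger error, and it was not called (edgeR adjusted p = 0.073). Without GOLPH3 shRNA replicate 2 it was called, with a log2 fold change of 0.42 (edgeR adjusted p = 0.013). Without GOLPH3 shRNA replicate 3 the value was 0.18 (edgeR adjusted p = 0.32), and it was not called with any of the other 4 libraries left out (edgeR adjusted p from 0.078 to 0.20).

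Of the 3 mitochondrial chaperones, 1 rose. Hspa9 encodes mortalin, the matrix HSP70 that drives import. It had 556, 514 and 482 CPM in the controls and 739.6, 749 and 735 CPM with GOLPH3 shRNA. The GOLPH3 shRNA values were nearly equal, with replicate 3 the lowest of them. Hspa9 rose from 517 ± 37.5 to 741 ± 6.79 CPM (SD, n = 3), or by 0.52 on the log2 scale with an SE of 0.068 (edgeR adjusted p = 2.89e-05).

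The chaperonin pair did not pass the test. Hspd1 (HSP60) had 369, 391 and 381 CPM in the controls and 413, 389 and 433 CPM with GOLPH3 shRNA. GOLPH3 shRNA replicate 2 lay just below the highest control, and the fitted log2 difference was 0.11 with an SE of 0.067 (edgeR adjusted p = 0.21). Hspe1 (HSP10) had 16.7, 18.1 and 15.1 CPM in the controls and 15.2, 18.1 and 18.4 CPM with GOLPH3 shRNA. Its groups were mixed, and the fitted log2 difference was 0.051 with an SE of 0.17 (edgeR adjusted p = 0.84). With 74.8 to 133 estimated counts per library Hspe1 was the least counted of the 10, and the change and its error cover values on both sides of 0. GENCODE v29 names 17 human pseudogenes after HSPD1 and 26 after HSPE1, and these genes overlap on opposite strands in the human annotation. How strands were counted is not given in the sources, so the values of both are uncertain.

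The GOLPH3 shRNA libraries differed among themselves in these genes. Replicate 3 was the highest of the group for 9 of the 10 genes, all but Hspa9, where 34.5% of all tested IDs had their highest GOLPH3 shRNA value in that library. Replicate 3 was highest, replicate 1 next and replicate 2 lowest for 7 genes: Hspa8, Hspa4, Hsph1, Hsp90ab1, Dnaja1, Dnajb1 and Hspd1. Of all tested IDs, 18.5% had that order. Among the members, Hspa8 spanned the widest range, with log2 CPM 1.02, 0.31 and 1.57 above the control mean in replicates 1, 2 and 3. For Dnajb1 these differences were 0.60, 0.42 and 1.04, and for Hsph1 they were 0.29, 0.060 and 0.53. For Hsp90aa1 they lay closer together, at 0.62, 0.64 and 0.85. Hspa9 showed nearly the same rise in each, with 0.52, 0.54 and 0.51. These counts and orders are descriptions, and no test was made of them.

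**Figure D3:**
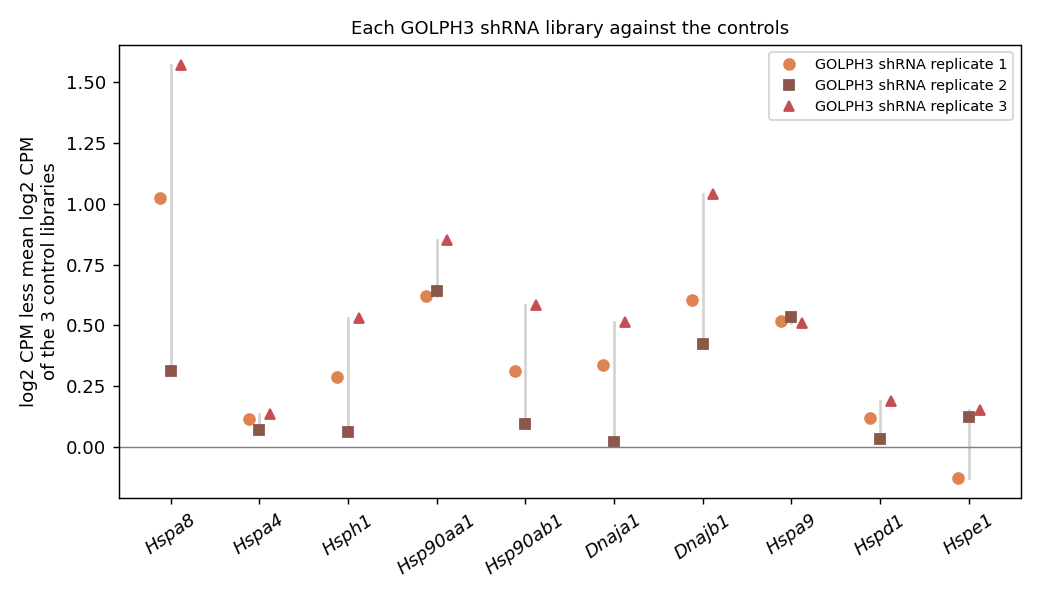
Log2 CPM of each GOLPH3 shRNA library less the mean log2 CPM of the 3 control libraries (y axis), by gene; a grey line joins the lowest and highest of the 3 replicates. Replicate 3 (triangles) is uppermost for 9 of the 10 genes, and the 3 points of Hspa9 lie between 0.51 and 0.54.

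The coefficient of variation over replicates was larger with GOLPH3 shRNA than in the controls for 8 of the 10 genes, all but Hspa4 and Hspa9, and for 55.8% of all tested IDs. Its median over the 10 genes was 5.87% among control and 13.3% among GOLPH3 shRNA libraries. Over all tested IDs the medians were 10.4% and 11.8%. For Hspa8 alone it was 5.74% and 41.5%.

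Ratios within a library compare how far partner genes moved and do not depend on the scaling of the library. The log2 ratio of Hsp90aa1 to Hsp90ab1 was 1.29, 1.38 and 1.18 in control replicates 1, 2 and 3 and 1.59, 1.83 and 1.55 with GOLPH3 shRNA. Every GOLPH3 shRNA value was higher than every control value, and the means differed by 0.37, or 1.29-fold. The log2 ratio of Dnajb1 to Dnaja1 had a mean of 1.27 ± 0.025 over the controls and of 1.67 ± 0.13 over the GOLPH3 shRNA libraries (SD, n = 3). These values too were separate, with a difference of 0.40.

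The log2 ratio of Hsph1 to Hspa8 was 0.87, 0.80 and 0.91 in the control replicates and 0.12, 0.61 and -0.18 in the GOLPH3 shRNA replicates, each below every control. The difference of the means was -0.68, and -0.49 without GOLPH3 shRNA replicate 3. The log2 ratio of Hspe1 to Hspd1 had a control mean of -4.52 ± 0.12 and a GOLPH3 shRNA mean of -4.58 ± 0.17 (SD, n = 3), with mixed values. The exact two-sided permutation p was 0.1 for each of the first 3 ratios, the smallest that 3 against 3 allows, and 0.7 for the last. Adjusted over the 4 ratios these became 0.13 and 0.7, so no ratio passed 0.05 and none could have. A ratio from estimated counts carries the gene lengths, so its level says nothing about which gene of a pair is more abundant.

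**Figure D4:**
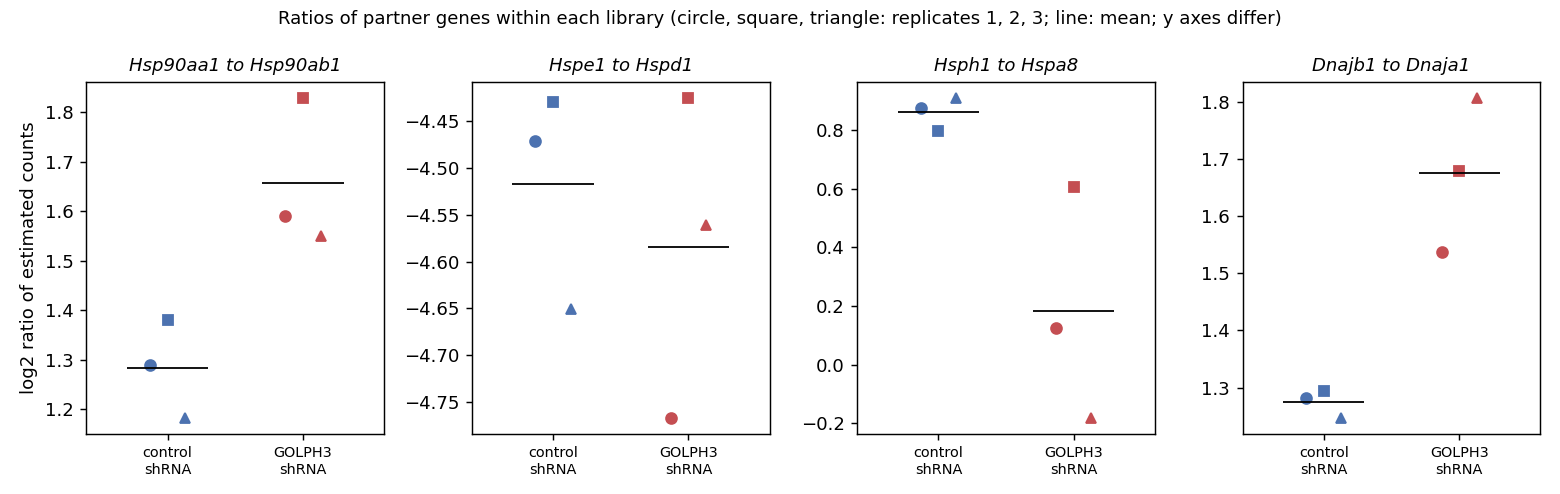
Log2 ratio of estimated counts of partner genes within each library (y axis, its own range in each panel, not starting at 0), with a line at each group mean. The panels of Hsp90aa1 to Hsp90ab1, Hsph1 to Hspa8 and Dnajb1 to Dnaja1 show separate groups (mean differences 0.37, -0.68 and 0.40), and the Hspe1 to Hspd1 panel shows mixed values.

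Together the 10 genes took up 0.327% to 0.335% of a control library and 0.437% to 0.506% of a GOLPH3 shRNA library. In CPM the sums were 3263, 3277 and 3398 in the controls and 4533, 4303 and 5187 with GOLPH3 shRNA. Hsp90aa1 is the largest term of the sum, and no test was made of it.

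Outside the 10 genes, the 2 tested IDs whose log2 CPM ran most like the members' centred mean over the 6 libraries were ENSMUSG00000059970.7 and ENSMUSG00000030342.8 (Pearson r of 0.997 and 0.996, a description over 6 libraries that fall into 2 groups). The log2 fold change of ENSMUSG00000059970.7 was 1.26 and that of ENSMUSG00000030342.8 was 0.32. Both IDs were chosen for running like the members over these same libraries. A rise in them therefore follows from the choice and is not a separate result. They carry no symbol here.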

How the data were processed

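RNA was sequenced from 3 control shRNA and 3 GOLPH3 shRNA samples with a stranded mRNA kit, per the labels' protocols. The deposited table holds the authors' estimated counts for each gene, not scaled to a common total. The build is mm10 per the submitters' processing notes. The aligner or quantifier, annotation release and strand setting were not given in the sources used here.

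Estimated counts were rounded. All IDs were filtered with filterByExpr and fitted with edgeR 4.0.16 in R 4.3.3 (TMM factors, quasi-likelihood F test, Benjamini-Hochberg adjustment over 11400 IDs). Each standard error is the log2 change over the square root of F. Ratios were compared by exact two-sided permutation. The edgeR fit was also run on simulated counts with known changes. The permutation of ratios was not tried on simulated data. Alternatives were DESeq2 1.42.0, limma-voom (limma 3.58.1), other scalings, filters and roundings, thinning, a replicate block and each library left out.

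All 10 members are named. The members, lists and tests were chosen with earlier results of these data known. Pathway lists by symbol (inducible chaperones, cochaperones, chaperonin and prefoldin, mitochondrial factors) and cell type markers could not be matched to mouse IDs and were not analysed here. The IDs most like the members were the 2 with the highest Pearson r.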

Additional observations from a re-analysis of the deposited data

How the results depend on the processing

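No member was called lower under any of the 18 alternatives to the edgeR fit, and 6 were called higher under DESeq2, limma-voom, 3 other scalings, 2 other filters, rounding down, thinning and the replicate block. With each library left out, 4 to 7 members were called higher (7 without GOLPH3 shRNA replicate 2, where Dnaja1 was added), as were 1425 to 1665 of all tested IDs, and 1644 to 1929 of these were called lower. With a minimum of 1.5-fold 3 members passed, with 749 of all tested IDs higher and 1041 lower, by construction. The fit of IDs with whole estimates alone holds only Hspa4 and Hsph1 of the members and called 1 of them (Hsph1, edgeR adjusted p = 0.00081); of all IDs in it, 1245 were called higher and 1240 lower, from fewer IDs tested. With the replicate number as a block 6 members were higher, 1842 of all tested IDs were higher and 2045 lower, and no member's call changed. The block gave a sign-flip p of 0.25, the smallest that 3 pairs allow, for each ratio but Hspe1 to Hspd1, where it was 1. Same-numbered libraries correlated at 0.029, 0.087 and 0.041 in their deviations from the group means. Each GOLPH3 shRNA library had its highest correlation with the control library of its own number. Control replicate 1, however, was closer to GOLPH3 shRNA replicate 3 (0.036) than to GOLPH3 shRNA replicate 1. No test was made of these correlations. The main fit was made without pairs, and the block is given as an alternative to it. The log2 fold change of Hspe1, never called, was -0.018 without control replicate 3 and -0.0047 without GOLPH3 shRNA replicate 3.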
